A study of Homo sapiens with 18 samples.

Results

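The 37 genes listed on chrM, the mitochondrial chromosome, were followed in 18 RNA-seq libraries. They were chosen by chromosome alone and are 37 of the 62703 genes in each table: 13 coding genes, 2 rRNA genes and 22 tRNA genes. The libraries come from human multiple myeloma cell lines labelled AMO1, H929 (NCI-H929) and LP1, with 3 libraries labelled SCR and 3 labelled gN1E in each line. Cells were treated for 48 h with a naked LNA gapmeR, a chemically modified antisense strand whose target RNA is cut by RNase H, either scrambled (SCR) or designed against the long non-coding RNA NEAT1 (gN1E). The lines are 3 different established cell lines, both gapmer labels of a line were applied to that same line, and nothing in the labels says that replicates came from separate cultures, so p-values measure the spread between these libraries only.

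NEAT1 was checked first, because the gapmeR is meant to lower it. In AMO1 it stood at 78.6, 84.8 and 95.01 CPM (counts scaled to the total of each library) in the libraries labelled SCR and at 477, 580 and 532 CPM in those labelled gN1E. In H929 it stood at 85.9, 75.9 and 85.9 CPM against 565, 469 and 567 CPM, and in LP1 at 121, 156 and 171 CPM against 618, 604 and 788 CPM. NEAT1 was therefore higher in the libraries labelled gN1E, against the label, with log2 fold changes of 2.66, 2.74 and 2.14 in AMO1, H929 and LP1 (adjusted p = 5.1e-13, 3.11e-14 and 0.0269, edgeR). The file headers also exchange both gapmer names and the names H929 and LP1. Each library is therefore called by its label and every direction below is that of the label under which NEAT1 was high. Which cell line lies behind the labels H929 and LP1 cannot be settled from the labels.

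The depth ran from 28061606 to 69937229 counts per library. All 7 plasma cell markers on the list were found in every library (SDC1 from 1091 to 15018 CPM, IRF4 from 1439 to 2038 CPM). Of the 6 markers of other cells, MS4A1, CD14, EPCAM and HBB stayed at or below 0.286 CPM, PAX5 stood at 0.804 to 1.24 CPM in LP1 and at most 0.0552 CPM elsewhere, and CD3E, a T cell receptor subunit, was at least 7.96 CPM in all 18 libraries.

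Human mitochondrial DNA is a small circle that is transcribed on both strands into long precursors. The tRNAs lie between the other genes like punctuation, and their excision releases the rRNAs and mRNAs. The mRNAs encode subunits of respiratory complexes I, III and IV and of the ATP synthase, while nuclear genes supply the remaining subunits, the RNA polymerase, the RNA-binding proteins and the ribosomal proteins. Malignant plasma cells make large amounts of immunoglobulin and depend on this respiratory chain for part of their energy.

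In hg38 the chromosome spans 16569 bases, with 28 of the genes on the plus strand and 9 on the minus strand. The minus strand carries MT-ND6, the only coding gene there, and 8 tRNA genes. The genes are packed: 20 of the 27 neighbouring pairs on the plus strand and 2 of the 8 on the minus strand overlap or abut. The authors counted a read pair only where it fell on 1 gene of its strand, so pairs that span a junction were left out. The tRNA genes are 59 to 75 bases long and the coding genes 207 to 1812 bases, and a level per length is given as CPM per kb.

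Sequences from hg38 are given for some of these genes. The first are the 3 tRNA genes with the highest mean CPM, followed by MT-TP, which neighbours MT-TT. They are shown on their own strand from 5′ to 3′ with the anticodon in capitals, at chrM:15888-15953 (plus strand), chrM:4329-4400 (minus strand), chrM:4263-4331 (plus strand) and chrM:15956-16023 (minus strand).
MT-TT: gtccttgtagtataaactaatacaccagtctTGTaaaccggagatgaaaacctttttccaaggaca
MT-TQ: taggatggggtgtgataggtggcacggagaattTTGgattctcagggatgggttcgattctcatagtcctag
MT-TI: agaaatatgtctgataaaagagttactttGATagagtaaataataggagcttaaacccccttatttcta
MT-TP: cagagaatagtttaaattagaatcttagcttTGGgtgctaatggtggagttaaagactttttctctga

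MT-TT, MT-TQ, MT-TI and MT-TP encode the tRNAs for threonine, glutamine, isoleucine and proline. MT-TT and MT-TP lie next to each other on opposite strands, so a comparison of the pair is also a comparison of strands.

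Coding genes on the plus strand share bases. The stretches below run 5′ to 3′ at chrM:8487-8612 and chrM:10730-10796, with the 46 and 7 bases that belong to both genes in capitals.
MT-ATP8/MT-ATP6: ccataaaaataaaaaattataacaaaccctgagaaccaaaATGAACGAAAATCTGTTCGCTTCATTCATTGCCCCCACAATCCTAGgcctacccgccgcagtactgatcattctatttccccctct
MT-ND4L/MT-ND4: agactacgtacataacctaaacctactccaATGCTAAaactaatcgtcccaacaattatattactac

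Each pair is carried on 1 bicistronic mRNA. MT-ATP8 is 207 bases long, the shortest coding gene, and shares 46 of them with MT-ATP6.

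A nuclear copy of part of the chromosome also competes for reads. Bases 3911 to 9755 of chrM align to chr1:629081-634924 at 98.5% identity over 5846 aligned positions, and pairs that matched both equally well were not counted. Of 150-base windows, 250 of 1393 in MT-CO1 and 140 of 893 in MT-ND2 were the same in the copy, against 0 in MT-CO2, MT-ATP8, MT-ATP6 and MT-CO3. The stretches below compare MT-CO3, at chrM:9469-9548, with its copy MTCO3P12, at chr1:634638-634717 on the plus strand, with the 5 bases that differ in capitals.
MT-CO3: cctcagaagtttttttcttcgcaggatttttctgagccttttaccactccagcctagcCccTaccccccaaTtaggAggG
MTCO3P12: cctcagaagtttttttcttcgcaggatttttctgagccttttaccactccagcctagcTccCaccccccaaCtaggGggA

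The 37 genes took between 1.44% and 3.86% of all counts, with a median of 2.07% over the 18 libraries. In AMO1 the share was 1.53%, 1.44% and 2.40% in the libraries labelled SCR (replicates A, C and D) and 2.05%, 1.56% and 2.08% in those labelled gN1E. In H929 it was 2.15%, 2.35% and 2.24% in SCR (A, B and C) and 3.86%, 2.7003% and 1.79% in gN1E. In LP1 it was 1.66%, 2.05% and 3.48% in SCR (A, B and D) and 1.597%, 2.35% and 1.77% in gN1E. One library stood high in each line, AMO1 SCR D, H929 gN1E A and LP1 SCR D, and the labels overlapped in every line. The 95% Wilson intervals were 0.00575 to 0.0103 percentage points wide, narrower than the gaps between replicates. These intervals cover counting error only. In bulk RNA, fewer mitochondria per cell and less RNA per mitochondrion cannot be told apart.

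Almost all of this share was mRNA. The coding genes held between 98.9% and 99.8% of the chrM counts of a library, the rRNA genes between 0.0552% and 0.759%, and the tRNA genes between 0.148% and 0.297%. The rRNA share of all counts differed 12.4-fold between its lowest and highest library, and the tRNA share 2.79-fold.

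**Figure D1:**
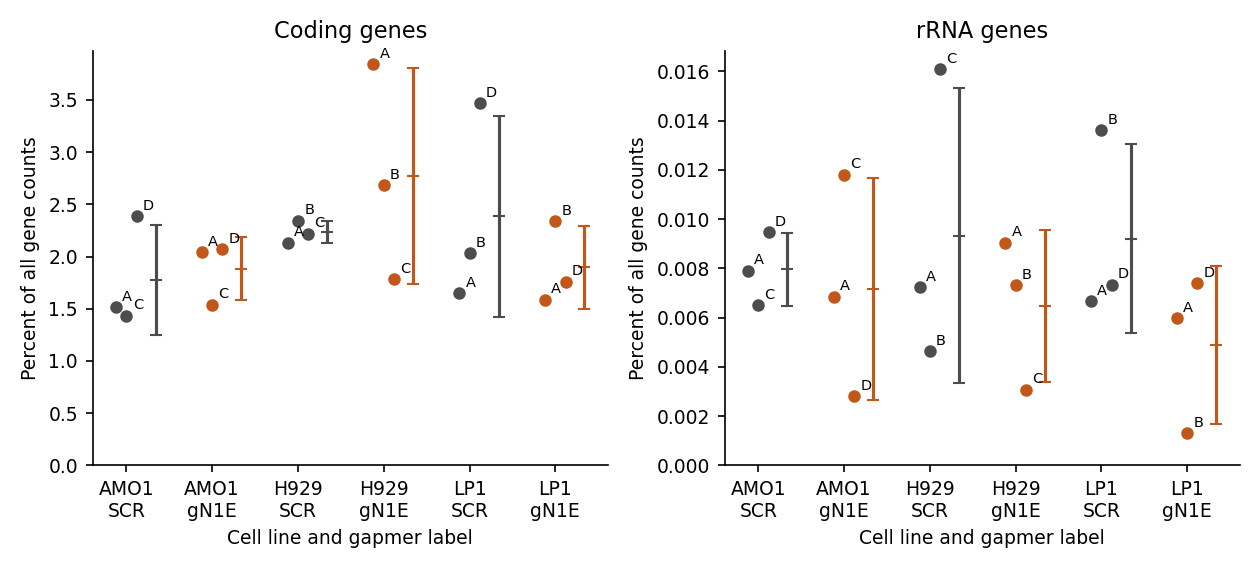
Share of all gene counts on the 13 coding genes (left) and the 2 rRNA genes (right) of chrM, in percent, for each library by cell line and gapmer label. Points are libraries with their replicate letter and bars are the mean ± SD of 3 libraries; the coding share ran from 1.43% to 3.84%, and the labels overlapped in every line for both classes.

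Among the coding genes, the 3 subunits of cytochrome c oxidase (complex IV), the enzyme that passes electrons to oxygen, were the most abundant per length. Over all libraries, MT-CO1 had a mean of 4492 CPM per kb, MT-CO3 4058 and MT-CO2 3208. In LP1 this order was reversed, with means of 4172 (MT-CO2), 3818 (MT-CO3) and 3739 CPM per kb (MT-CO1). In AMO1 the means were 4670 (MT-CO1), 3651 (MT-CO3) and 2086 (MT-CO2), and in H929 5067, 4704 and 3365. MT-ND4, a complex I subunit, followed at 2200 CPM per kb, then MT-CYB, the cytochrome b of complex III, at 1562, and MT-ATP6, the proton channel subunit of the ATP synthase, at 1539. The remaining complex I subunits of the plus strand stood at 1237 (MT-ND4L), 989 (MT-ND1), 660 (MT-ND5), 558 (MT-ND2) and 420 CPM per kb (MT-ND3), with MT-ATP8, the small accessory subunit of the ATP synthase, at 428. Counts per length of the bicistronic partners were unequal, with MT-ATP6 above MT-ATP8 and MT-ND4 above MT-ND4L. Pairs that span a junction were left out, and MT-ATP8 (207 bases) and MT-ND4L (297 bases) are short. These values therefore do not measure unequal amounts of RNA from 1 mRNA, and the part of gene length was not tested.

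Neighbours in this order differed in how steady they were. MT-CO2 lay above MT-ND4 in 18 of 18 libraries and MT-ND3 above MT-ND6 in 18 of 18. MT-CYB lay above MT-ATP6 in only 10 of 18, and MT-ATP8 above MT-ND3 in only 4 of 18, although its mean was higher. MT-CO1 lay above MT-CO3 in 14 of 18 libraries, and MT-CO3 above MT-CO2 in 14 of 18.

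The minus strand, which carries MT-ND6 as its only coding gene and no rRNA gene, took few of the counts. MT-ND6, a complex I subunit, had the lowest level of the coding genes at 164 CPM per kb (102 to 278 over the libraries). The next lowest was MT-ND3 of the plus strand, at 420 CPM per kb. The minus strand as a whole held between 0.338% and 0.731% of the chrM counts of a library. It held 0.431%, 0.595% and 0.406% in AMO1 SCR and 0.495%, 0.611% and 0.517% in AMO1 gN1E. In H929 it held 0.633%, 0.434% and 0.731% in SCR against 0.381%, 0.368% and 0.432% in gN1E, where all gN1E libraries lay below all SCR libraries. In LP1 it held 0.546%, 0.470% and 0.354% in SCR against 0.440%, 0.338% and 0.364% in gN1E, with overlap.

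The difference of the minus-strand share, gN1E minus SCR, was 0.064 percentage points in AMO1, -0.206 in H929 and -0.076 in LP1. With each library left out it ran from 0.0281 (without SCR D) to 0.123 (without SCR C) in AMO1, from -0.289 to -0.14 in H929 and from -0.127 (without SCR D) to -0.0311 (without SCR A) in LP1. Two-sided exact permutation tests gave p = 0.4, 0.1 and 0.3 with 3 libraries per label, a design whose smallest p is 0.1. In AMO1, where libraries of the same letter deviated together as described later, the share was higher in gN1E within all 3 letters, and the paired exact permutation test gave p = 0.25, the smallest that 3 pairs allow.

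The rRNAs were rare and erratic. MT-RNR2, the large-subunit rRNA, stood between 8.88 and 143 CPM and MT-RNR1, the small-subunit rRNA, between 3.89 and 36.1 CPM. In AMO1, MT-RNR2 was at 65.8, 60.5 and 81.6 CPM in SCR and at 55.2, 105 and 23.0 CPM in gN1E. In H929 it was at 54.6, 23.7 and 143 CPM in SCR and at 75.4, 37.1 and 17.8 CPM in gN1E. In LP1 it was at 62.7, 113 and 68.2 CPM in SCR and at 54.3, 8.88 and 45.8 CPM in gN1E. The LP1 libraries labelled gN1E all lay below those labelled SCR, and in the other lines the labels overlapped. Per length, MT-RNR2 averaged 39.0 CPM per kb, below every coding gene. Libraries followed the TruSeq Stranded Total RNA protocol, and the sources used here do not spell out a step that removes rRNA. These values describe the libraries and not the rRNA content of the cells.

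Counts of the tRNA genes were low, and 20 of the 22 stayed under 10 CPM in every library. At 59 to 75 bases these genes are shorter than a read of 150 bases, and pairs that reached a neighbouring gene of the same strand were left out. Their counts describe the libraries and not the tRNA content of the cells. MT-TT had the highest mean (14.8 CPM), and 15 of the 22 had a mean under 2 CPM. MT-TF and MT-TN had no count in 2 libraries each and MT-TY in 1 library. A count of 0 allows up to 0.0429 to 0.107 CPM, depending on depth, taking 3 counts as the limit. MT-TI had the third highest mean (4.71 CPM). It was at 2.12 to 3.98 CPM in AMO1, 3.42 to 10.3 CPM in H929 and 3.42 to 9.76 CPM in LP1, and was highest in AMO1 SCR D, H929 gN1E A and LP1 SCR D. The lowest mean per length was that of MT-TN, at 0.996 CPM per kb, and the highest that of MT-TT, at 224 CPM per kb. On this scale MT-TT lay above MT-ND6 in AMO1 (269 against 146) and H929 (289 against 200). In LP1 MT-TT lay below MT-ND6 (113 against 147). MT-TT (66 bases) is shorter than a read and MT-ND6 (525 bases) is not, so this scale does not compare the amounts of their transcripts.

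**Figure D2:**
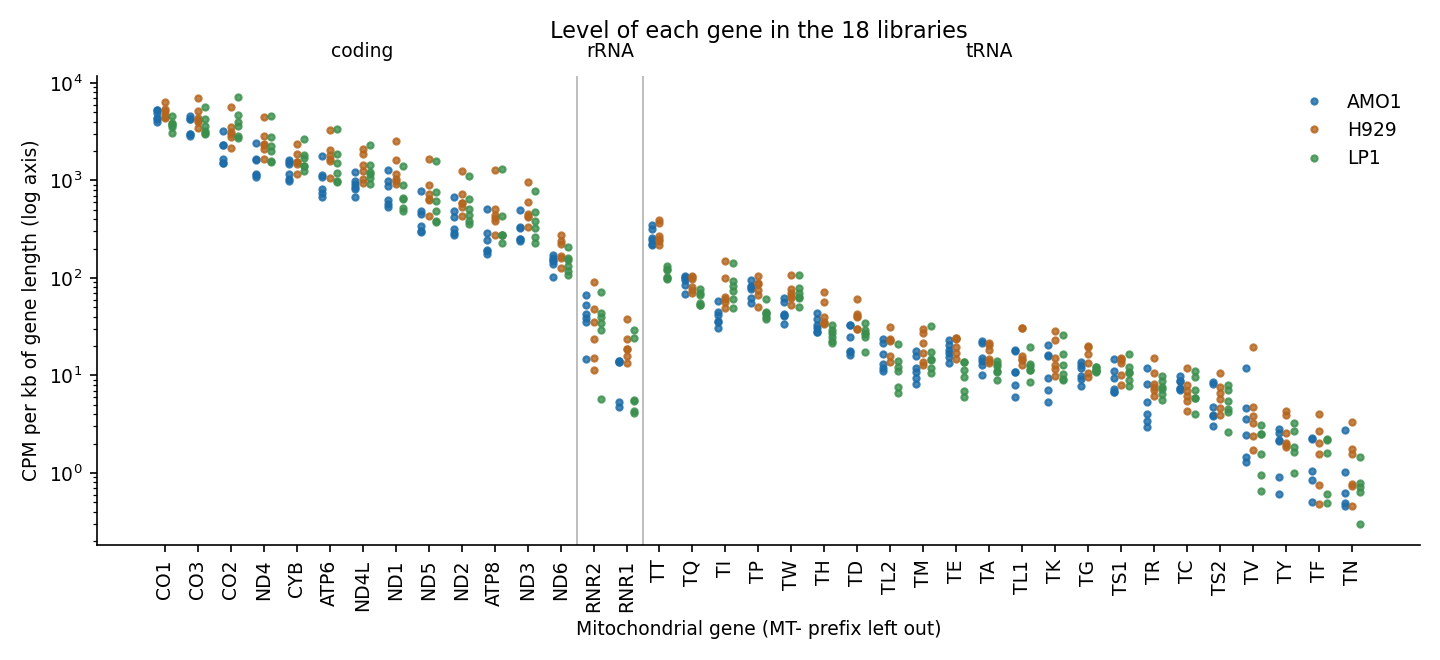
Level of each of the 37 genes in CPM per kb of gene length (log axis), with 1 point per library, coloured by cell line label; libraries with no count of a gene are not drawn. Over all libraries, the means of the coding genes run from MT-CO1 (4492) down to MT-ND6 (164). In LP1, MT-CO2 has the highest mean. Both rRNAs lie below every coding gene, and MT-TT lies lower in LP1 than in the other lines.

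Replicates of 1 group differed more in these genes than in nearly all others. The spread was taken as the SD of log2(CPM + 0.5) around the group means, pooled over the 6 groups, for the 11277 genes with a mean of at least 5 CPM. The median was 0.084 over nuclear genes and 0.55 over the 13 coding genes, and 14 of the 17 chrM genes tested this way were among the 100 most variable genes. MT-RNR2 (1.01), MT-RNR1 (0.97) and MT-ATP8 (0.83) ranked 3, 4 and 5. MT-ND5 (0.71) ranked 12, while MT-CO3 (0.36) and MT-CYB (0.36) ranked 37 and 38. MT-CO1 varied least of the coding genes (0.18, rank 422), and MT-TT (0.20) and MT-TQ (0.18) ranked 260 and 442. Among the 2339 nuclear genes of at least 100 CPM the median was 0.064, and 3 of them exceeded MT-CO3.

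The other genes of high spread, named after their values were seen, included the immunoglobulin segments IGKV3-15 (2.03) and IGKV3-11 (1.38) at ranks 1 and 2. Small nuclear RNA genes followed, with RNU4-1 (0.79), RNU4-2 (0.78) and RNU5A-1 (0.77), and so did PFKFB4 (0.67), a glycolytic regulator, and MIR210HG (0.58), host of a miRNA, both known to be induced by hypoxia. MTATP6P1 (0.55) and MTND2P28 (0.34), nuclear copies of chrM genes, ranked 22 and 43. Among mRNAs of ribosomal proteins, RPL27 (0.37) ranked 36 and RPS27 (0.35) ranked 41.

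The coding genes moved as a block. In AMO1 SCR D, H929 gN1E A, LP1 SCR D and LP1 gN1E B, each of the 13 was the highest of its group, and in AMO1 gN1E C, H929 gN1E C and LP1 SCR A each of the 13 was the lowest. The mean deviation of the 13 from the group mean was 0.64, 0.67, 0.79 and 0.37 on the log2 scale in the libraries where they were highest, and -0.28, -0.71 and -0.57 where they were lowest. The remaining libraries lay between -0.34 and 0.18.

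MT-ND5 shows the size of these shifts. Its level was 532, 546 and 1419 CPM in AMO1 SCR and 812, 616 and 872 CPM in AMO1 gN1E. In H929 it was 1150, 1181 and 1302 CPM in SCR and 3010, 1626 and 790 CPM in gN1E. In LP1 it was 704, 1110 and 2889 CPM in SCR and 680, 1393 and 885 CPM in gN1E. The H929 SCR libraries agreed within 1.13-fold, while H929 gN1E spanned 3.81-fold and LP1 SCR 4.10-fold.

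MT-CO1 moved in the same libraries but much less. Its level was 6712, 6087 and 7540 CPM in AMO1 SCR and 8174, 6567 and 8124 CPM in AMO1 gN1E. In H929 it was 7238, 8262 and 6863 CPM in SCR and 9777, 8048 and 6692 CPM in gN1E, and in LP1 5680, 5790 and 6998 CPM against 5402, 5938 and 4788 CPM. The highest and lowest library of a group differed by 1.20-fold to 1.46-fold. MT-ATP8 was at the other end, with 47.6, 57.6 and 269 CPM in LP1 SCR, a range of 5.66-fold.

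The block did not extend evenly to the other classes. AMO1 SCR D was the highest of its group for 19 of 22 tRNA genes, LP1 SCR D for 15 and H929 gN1E A for 13. These libraries were highest for 20.1%, 29.9% and 19.0% of the 2339 nuclear genes of at least 100 CPM. LP1 SCR D was the highest for 0 of the 2 rRNA genes. MT-RNR2 was lowest of its group in LP1 gN1E B, where all coding genes were highest.

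Nuclear genes of mitochondrial function shifted far less in the same libraries. The median deviation of the 77 nuclear subunits of complexes I to IV and the ATP synthase with at least 5 CPM was 0.047 in AMO1 SCR D, 0.032 in H929 gN1E A, 0.0043 in LP1 SCR D and -0.045 in H929 gN1E C. For 82 genes of cytosolic ribosomal proteins, a set added after the values were seen, it was 0.031, 0.063, 0.041 and -0.066. Over all 11260 nuclear genes it was -0.0065, -0.025, -0.015 and 0.029. In LP1 gN1E B, LP1 SCR A and AMO1 gN1E C the respiratory subunits stood at 0.048, 0.015 and -0.016. The ribosomal genes stood there at 0.073, -0.030 and -0.018. Over the 18 libraries the respiratory subunits stayed between -0.057 and 0.048. The ribosomal genes stayed between -0.068 (AMO1 SCR C) and 0.073 (LP1 gN1E B). Which libraries shared a sequencing run is not given in the sources used here, and the part of depth, run or RNA handling in the block was not tested.

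**Figure D3:**
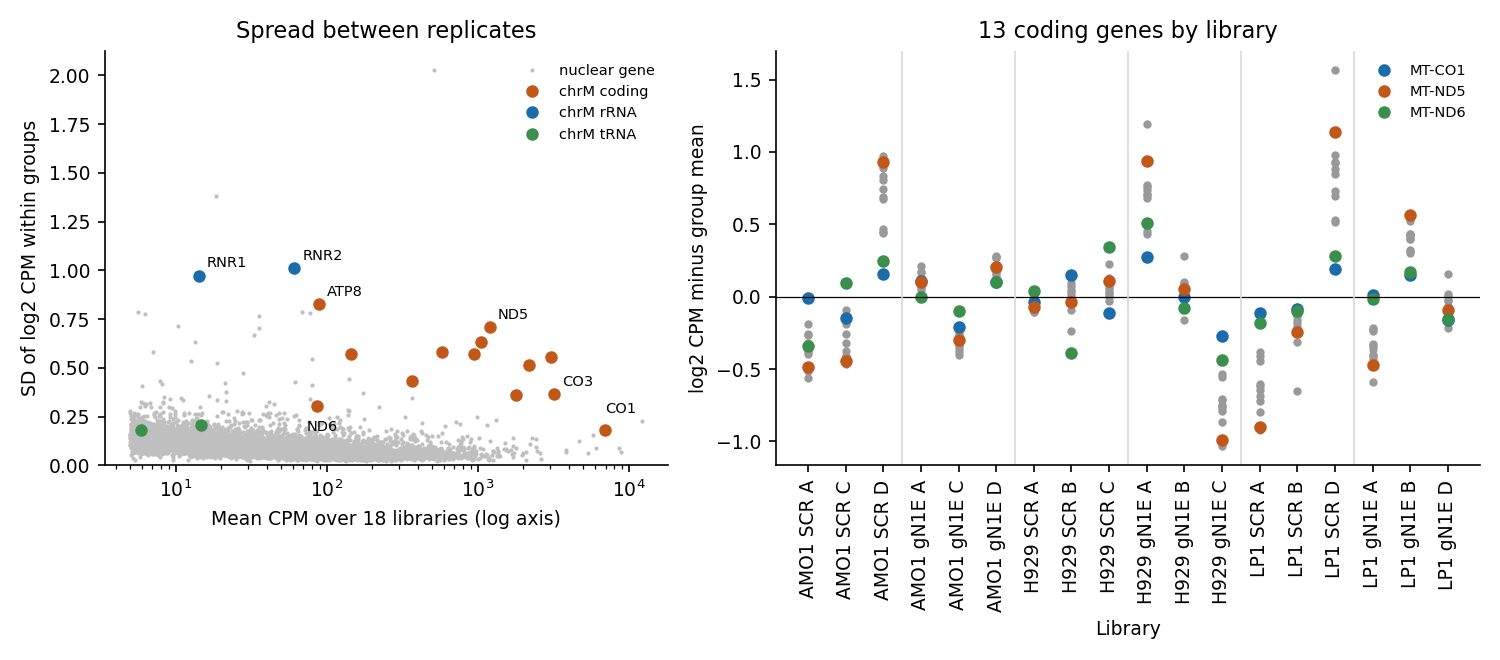
Left, SD of log2(CPM + 0.5) within groups against mean CPM (log axis) for genes of at least 5 CPM, with chrM genes coloured by class; right, log2(CPM + 0.5) minus the group mean for the 13 coding genes in each library, with MT-CO1, MT-ND5 and MT-ND6 coloured. The coding genes lie above most nuclear genes of like abundance, and in AMO1 SCR D, H929 gN1E A and LP1 SCR D all 13 lie above their group mean.

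The comparison of the gapmer labels asked whether these transcripts changed where NEAT1 was high. The chrM share, gN1E minus SCR, differed by 0.107 percentage points in AMO1, 0.538 in H929 and -0.494 in LP1. Two-sided exact permutation tests gave p = 0.8, 0.6 and 0.6 with 3 libraries per label (smallest possible p 0.1). With labels permuted within lines, the mean difference over the lines was 0.050 percentage points (exact permutation test, p = 0.866). The AMO1 difference turned negative without AMO1 SCR A (-0.025) or SCR C (-0.066), the LP1 difference turned positive without LP1 SCR D, at 0.049, and the H929 difference fell to 0.00013 without H929 gN1E A.

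In the main fit, which had no replicate block, none of the coding genes passed an adjusted p of 0.05 (edgeR quasi-likelihood, Benjamini-Hochberg over all genes). The unadjusted p was under 0.05 for 0 in AMO1, 0 in H929 and 1 in LP1, with no share over all genes at this limit given here. With the replicate letter as a block, 1 of 13, MT-CO1, was called in AMO1 and 0 in H929 and LP1 (backgrounds 6.08%, 3.96% and 1.05%, edgeR). limma-voom called 0 coding genes in AMO1 and H929 and 1, MT-ND6, in LP1 (backgrounds 1.67%, 4.25% and 1.13%), while DESeq2 called 0 in each line (backgrounds 2.71%, 5.48% and 2.11%). The median log2 fold change of the 13 was 0.013 in AMO1, 0.45 in H929 and -0.41 in LP1, against -0.016, -0.0096 and -0.0012 over all genes tested. In AMO1, 7 of the 13 had a positive fold change, in H929 12 and in LP1 0. Single libraries set these values: without LP1 SCR D the LP1 median was 0.093 with 10 of 13 positive, without H929 gN1E A the H929 median was 0.047 with 9 of 13, and without AMO1 SCR D the AMO1 median was 0.45 with 13 of 13. Leaving out each library in turn, the median ran from -0.21 to 0.45 in AMO1, from 0.047 to 0.74 in H929 and from -0.64 to 0.093 in LP1.

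The standard errors were wide where the spread was. MT-ND5, a core complex I subunit, had log2 fold changes of -0.08 ± 0.50, 0.63 ± 0.55 and -0.69 ± 0.68 (standard error) in AMO1, H929 and LP1. MT-ND1, which helps form the quinone site of complex I, had 0.09 ± 0.46, 0.74 ± 0.43 and -0.30 ± 0.52. MT-ND2, MT-ND3, MT-ND4 and MT-ND4L lay between -0.09 and 0.07 in AMO1, between 0.45 and 0.60 in H929 and between -0.47 and -0.36 in LP1.

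Of the complex IV mRNAs, MT-CO1, the catalytic subunit, had 0.21 ± 0.13, 0.18 ± 0.19 and -0.22 ± 0.13 (log2 fold change ± standard error) in AMO1, H929 and LP1. MT-CO2, which takes electrons from cytochrome c, had -0.01 ± 0.41, 0.40 ± 0.41 and -0.37 ± 0.46. MT-CO3 had 0.18 ± 0.29, 0.36 ± 0.31 and -0.26 ± 0.32, and MT-CYB of complex III 0.22 ± 0.27, 0.28 ± 0.30 and -0.38 ± 0.33. None of these passed the test in the main fit. With the replicate block in AMO1, MT-CO1 was called (0.20 ± 0.044, adjusted p = 0.00105, edgeR, background 6.08%).

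Errors were also wide for the ATP synthase mRNAs and the rRNAs. MT-ATP6 had log2 fold changes of -0.05 ± 0.48, 0.40 ± 0.47 and -0.57 ± 0.60, and MT-ATP8 -0.23 ± 0.54, 0.80 ± 0.66 and -0.91 ± 0.86 (± standard error; AMO1, H929, LP1). MT-RNR1 had 0.08 ± 0.62, 0.17 ± 0.50 and 0.16 ± 1.17, and MT-RNR2 -0.16 ± 0.58, -0.69 ± 0.92 and -1.19 ± 0.71.

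MT-ND6, from the other strand, had the smallest unadjusted p of the coding genes in LP1. Its level there was 79.9, 84.6 and 110 CPM in SCR and 61.2, 70.0 and 55.7 CPM in gN1E, without overlap. The fit gave -0.58 ± 0.18 log2 (adjusted p = 0.301, edgeR; adjusted p = 0.0219, limma-voom). In AMO1 it was 53.7, 73.0 and 80.9 CPM in SCR and 83.9, 78.5 and 90.2 CPM in gN1E, with overlap, and its log2 fold change was 0.32 ± 0.15 (adjusted p = 0.458, edgeR). It was higher in gN1E within all 3 letters of AMO1, and the fit with the replicate block gave 0.34 ± 0.12 (adjusted p = 0.272, edgeR). Without the filter on low counts it was called (0.31 ± 0.071, adjusted p = 0.0026, edgeR), in a fit that called 4 of the 37 genes against a background of 2.24%. In H929 it was -0.29 ± 0.35 (adjusted p = 0.761, edgeR).

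One gene of the 36 tested passed in AMO1, MT-TD, the gene of the tRNA for aspartate, against a background of 2.06% of genes called in that comparison. Its level was 1.10, 1.18 and 1.22 CPM in SCR and 2.23, 1.67 and 2.26 CPM in gN1E, so all gN1E libraries lay above all SCR libraries, and the fit gave 0.87 ± 0.21 log2 (adjusted p = 0.0298, edgeR). The call was lost without any 1 of AMO1 SCR A, C or D or AMO1 gN1E A or D (log2 fold change 0.78 to 0.91, adjusted p up to 0.158, edgeR). When counts were scaled to the 13 coding genes it was also lost (0.67, adjusted p = 0.99, edgeR), in a fit that called 7 of 22933 genes in place of 473. Without AMO1 SCR D, MT-ND4L was called instead (0.35 log2, adjusted p = 0.0345, edgeR). The MT-TD log2 fold change was 0.55 ± 0.18 in H929 (adjusted p = 0.08, edgeR) and -0.10 ± 0.21 in LP1 (adjusted p = 0.893, edgeR).

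In AMO1, libraries with the same replicate letter deviated together (r = 0.198, 0.16 and 0.121 over 14850 genes), and a fit with the letter as a replicate block called 4 of the 36 genes, against a background of 6.08%. These were MT-TD, MT-TT (0.43, adjusted p = 0.000167, edgeR), MT-TP (0.48, adjusted p = 0.0135, edgeR) and MT-CO1 (0.20, adjusted p = 0.00105, edgeR). All 4 were higher in CPM on average under the gN1E label. The values in parentheses are log2 fold changes.

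In H929, 0 of 37 genes passed, against a background of 5.47%, and in LP1 0 of 36, against 1.43% (edgeR). The unadjusted p was under 0.05 for 7 and 6 genes, and for 35 of 198 and 20 of 197 of the listed nuclear genes described below. Shares over all genes under this unadjusted limit are not given here. limma-voom called 1 and 1 (backgrounds 4.25% and 1.13%) and DESeq2 2 and 1 (backgrounds 5.48% and 2.11%). MT-TT in H929 was at 15.9, 14.3 and 16.6 CPM in SCR and at 25.7, 24.4 and 17.6 CPM in gN1E, without overlap, and its log2 fold change was 0.58 ± 0.17 (adjusted p = 0.161, edgeR; 0.015, limma-voom; 0.0327, DESeq2). Without H929 gN1E C, 8 genes were called there (21.6% of 37, background 5.25%), all higher in gN1E, among them MT-TT (0.75), MT-TI (1.12), MT-TH (0.89) and MT-CYB (0.52, adjusted p = 0.000547, edgeR). Without H929 SCR B, 2 of 36 were called (5.56%, background 5.45%), MT-TV (-1.91) and MT-TG (0.94). In LP1, MT-TQ was at 4.79, 5.03 and 5.61 CPM in SCR and at 3.79, 4.01 and 3.79 CPM in gN1E, without overlap (log2 fold change -0.44 ± 0.12; adjusted p = 0.061, edgeR; 0.0401, DESeq2). MT-TQ is identical to its nuclear copy over its 72 bases.

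Counted over all members, the labels did not overlap for 4 of 37 genes in AMO1, 4 in H929 and 5 in LP1, against 17.6%, 22.7% and 17.8% of all genes tested. In AMO1 these were MT-TA, MT-TD, MT-TE and MT-TP, all higher in gN1E. In H929 they were MT-TG, MT-TR and MT-TT, higher in gN1E, and MT-TN, lower. In LP1 they were MT-RNR2, MT-ND6, MT-TQ, MT-TA and MT-TC, all lower in gN1E.

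The difference of the effect between lines was tested in a joint fit of the 18 libraries. None of the 37 genes passed in any pair of lines, against backgrounds of 0% (AMO1 minus H929), 0.741% (AMO1 minus LP1) and 0.874% (H929 minus LP1) of genes called in edgeR, and limma-voom also called 0 in each pair (backgrounds 0%, 0.639% and 0.704%). The unadjusted p was under 0.05 for 1, 6 and 7 genes, and the share of all genes under this unadjusted limit is not given here. The smallest adjusted p was that of MT-TQ between AMO1 and LP1 (difference 0.75 ± 0.20 log2, adjusted p = 0.0626, edgeR).

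**Figure D4:**
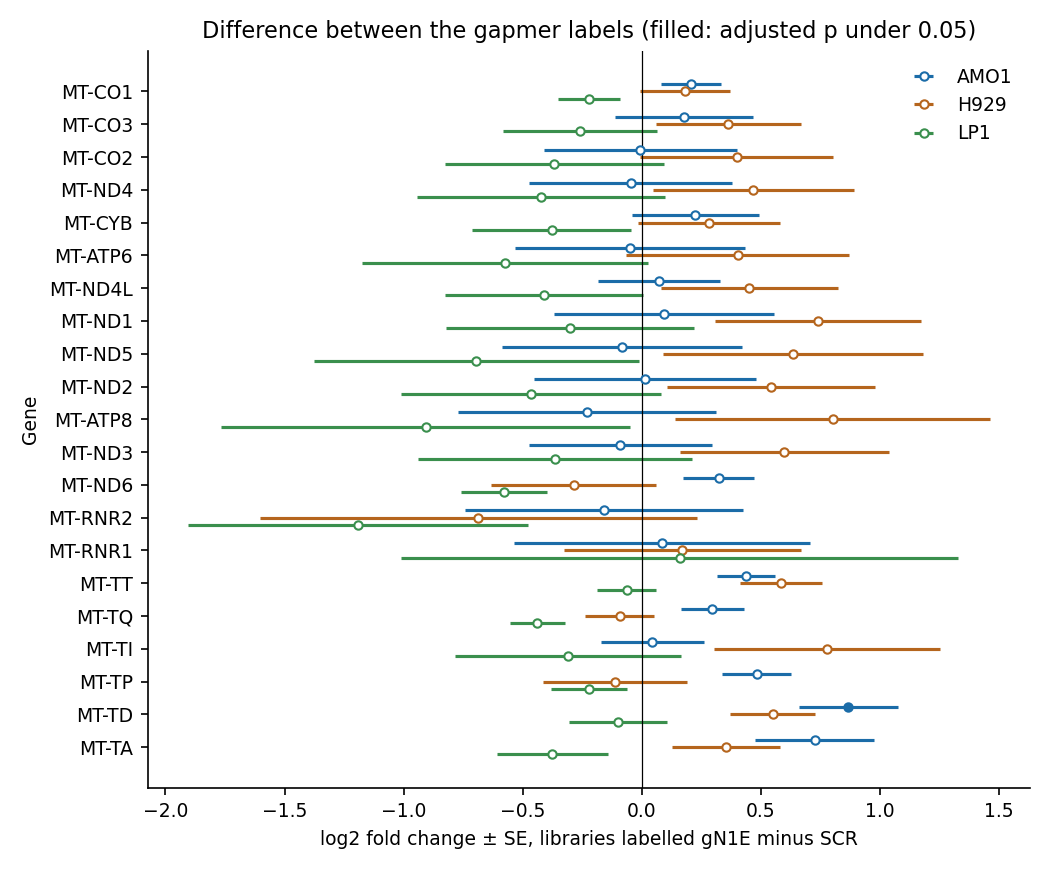
Log2 fold change ± standard error (edgeR, libraries labelled gN1E minus SCR) of the 13 coding genes, both rRNA genes and 6 tRNA genes in each line, with filled points for an adjusted p under 0.05. MT-TD in AMO1 is the only filled point, and the coding genes lie mostly right of 0 in H929 and left of 0 in LP1, with wide errors for most.

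Nuclear genes that serve this genome were taken from lists of factors for mtDNA transcription, replication and RNA processing, respiratory subunits and mitoribosome proteins. Of these, 2 of 198 passed in AMO1 (1.01%, background 2.06%), 6 of 198 in H929 (3.03%, background 5.47%) and 2 of 197 in LP1 (1.02%, background 1.43%). The median log2 fold change of the listed genes was -0.0079, -0.0067 and -0.025.

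LRPPRC, which binds mitochondrial mRNAs and keeps them stable, rose under the gN1E label in AMO1 (log2 fold change 0.37 ± 0.052, adjusted p = 0.000147, edgeR) and in H929 (0.31 ± 0.050, adjusted p = 9.46e-05, edgeR), and had 0.13 ± 0.049 in LP1 (adjusted p = 0.209, edgeR). Its partner SLIRP had -0.05 ± 0.083, 0.11 ± 0.11 and -0.08 ± 0.068 and passed in no line. MRPS27, a protein of the small mitoribosomal subunit, also rose, by 0.21 ± 0.053 in AMO1 (adjusted p = 0.0444, edgeR) and 0.17 ± 0.046 in H929 (adjusted p = 0.0238, edgeR).

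In H929 the other listed genes called were LIG3, the mtDNA ligase (0.17 ± 0.047, adjusted p = 0.0255, edgeR), which rose, and 3 that fell in the libraries labelled gN1E. These were RRM2B, a ribonucleotide reductase subunit (-0.26 ± 0.059), FASTKD1, an RNA-binding protein of mitochondria (-0.16 ± 0.049), and NDUFB5, a complex I subunit (-0.22 ± 0.054). In LP1, POLG2, the accessory subunit of the mtDNA polymerase, rose (0.23 ± 0.059, adjusted p = 0.0479, edgeR) and MRPL57, a mitoribosomal protein, fell (-0.31 ± 0.067, adjusted p = 0.0193, edgeR). TFAM and POLRMT, the transcription factor and the RNA polymerase of mtDNA, passed in no line.

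The lines were then compared across both labels, with 6 libraries each. The chrM share averaged 1.84% ± 0.388 in AMO1, 2.51% ± 0.721 in H929 and 2.15% ± 0.709 in LP1 (SD, n = 6). AMO1 minus H929 was -0.672 percentage points (two-sided exact permutation test, p = 0.0455, adjusted over the 3 pairs 0.136), AMO1 minus LP1 -0.308 and H929 minus LP1 0.363 (adjusted p = 0.422 for both, exact permutation test). None of these passed. In the libraries labelled SCR alone the H929 minus LP1 difference was -0.152, and in those labelled gN1E alone the AMO1 minus LP1 difference was -0.00787. Without LP1 SCR D, AMO1 minus LP1 was -0.0415 and H929 minus LP1 0.63, and without H929 gN1E A, H929 minus LP1 was 0.0948 and AMO1 minus H929 -0.403.

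Of the 37 genes, 5 passed between AMO1 and H929, 12 between AMO1 and LP1 and 8 between H929 and LP1, against backgrounds of 44.4%, 75.9% and 74.6% of 26436 genes (edgeR, joint fit). In CPM, the libraries of a pair of lines did not overlap for 0, 1 and 3 of the 37 genes, against 23.7%, 58% and 56.8% of all genes tested. Without AMO1 SCR D alone, the AMO1 minus H929 count was 17 (45.9% of the 37, background 43.1%), and without H929 gN1E C it was 14 (37.8%, background 42.7%), while it was 1 to 3 without any 1 of AMO1 SCR A or C, AMO1 gN1E C, H929 SCR A or C or H929 gN1E A or B (2.7% to 8.11%, backgrounds 41.8% to 43.6%).

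MT-TT differed most clearly. It stood between 6.51 and 8.77 CPM in the 6 LP1 libraries, between 14.4 and 23.2 CPM in AMO1 and between 14.3 and 25.7 CPM in H929. LP1 did not overlap with either line, and the log2 difference was 1.07 ± 0.13 for AMO1 minus LP1 (adjusted p = 1.18e-06, edgeR) and 1.15 ± 0.12 for H929 minus LP1 (adjusted p = 5.07e-07, edgeR). Both calls held under all 24 alternatives. AMO1 and H929 overlapped in MT-TT, and that difference did not pass.

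MT-TP, MT-TQ and MT-TE, on the minus strand, were also lower in LP1 than in both other lines. MT-TP had log2 differences of 0.56 ± 0.16 (AMO1 minus LP1) and 0.62 ± 0.15 (H929 minus LP1), MT-TQ 0.39 ± 0.098 and 0.32 ± 0.098, and MT-TE, the gene of the tRNA for glutamate, 0.66 ± 0.19 and 0.85 ± 0.18. All 6 differences passed the test (edgeR). In the other direction, MT-TI (-1.19 ± 0.32), MT-TW (-0.79 ± 0.21), MT-TR (-0.62 ± 0.26) and MT-TD (-0.39 ± 0.15), on the plus strand, were lower in AMO1 than in LP1. MT-TD, MT-TH and MT-TL2, on the plus strand, and MT-TA, on the minus strand, were lower in LP1 than in H929. MT-TI, MT-TW, MT-TD, MT-TH and MT-TR were also lower in AMO1 than in H929, MT-TD by -0.80 ± 0.15 (adjusted p = 3.45e-05, edgeR). Between AMO1 and H929, of the 24 alternatives 24 kept the call of MT-TD, 18 that of MT-TW, 16 that of MT-TR and 12 each those of MT-TI and MT-TH. Between AMO1 and LP1, 16 kept that of MT-TR, 19 that of MT-TD and 23 each those of MT-TE, MT-TI, MT-TP, MT-TQ and MT-TW. Between H929 and LP1, 12 kept that of MT-TA, 14 that of MT-TL2, 20 that of MT-TD, 23 each those of MT-TE, MT-TH and MT-TQ and 24 that of MT-TP.

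In edgeR over all libraries, 4 of 13 coding genes were lower in AMO1 than in LP1 (30.8%, background 75.9%) and none passed between the other pairs. These counts moved with single libraries: without AMO1 SCR D, edgeR called 9 of 13 between AMO1 and H929 (69.2%, background 43.1%) and 8 between AMO1 and LP1 (61.5%, background 75%). Without H929 gN1E C it called 6 between AMO1 and H929 (46.2%, background 42.7%), and without LP1 SCR D it called 1 between AMO1 and LP1 (7.69%, background 75.3%). Between H929 and LP1 it called 0 to 2 with each library left out and 3 with library size only (23.1%, background 75.4%). With all libraries, limma-voom called 9 of 13 between AMO1 and H929 (69.2%, background 44.9%), 6 between AMO1 and LP1 (46.2%, background 76.3%) and 2 between H929 and LP1 (15.4%, background 75.3%). MT-CO2 had the largest difference, at -1.17 ± 0.31 log2 (adjusted p = 0.00357, edgeR), with 1026 to 2182 CPM in AMO1 and 1857 to 4905 CPM in LP1. MT-ND4 (-0.86 ± 0.33), its bicistronic partner MT-ND4L (-0.74 ± 0.25) and MT-CYB (-0.56 ± 0.21) were the others. Of the 24 alternatives, 23 kept the call of MT-CO2, 20 that of MT-ND4L, 17 that of MT-CYB and 16 that of MT-ND4.

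The makeup of the coding counts also varied by line. No gene other than the coding genes has such a percentage, so there is no background over all genes for it; in CPM, 58% and 56.8% of all genes tested separated AMO1 and H929 from LP1. None of the 13 coding genes separated AMO1 from H929 in its percentage. MT-CO2 took 6.78% to 9.15% of the coding counts in AMO1, 8.21% to 9.99% in H929 and 11.7% to 14.1% in LP1, with LP1 above both other lines. MT-CYB took 7.51% to 8.61%, 7.05% to 8.04% and 8.76% to 9.61%, again with LP1 apart. MT-CO3 took 15.1% to 16.3% in AMO1 and 12.8% to 14.7% in LP1, without overlap, and MT-ND1 4.41% to 6.38% in H929 and 2.80% to 3.85% in LP1, without overlap. MT-ND4L took 1.317% to 1.705% in AMO1 and 1.708% to 2.00% in LP1, also without overlap but nearly touching. MT-CO1 took 31.6% to 44.3% in AMO1, 25.5% to 37.5% in H929 and 20.2% to 34.4% in LP1, with overlap between all lines. The makeup also moved with the level of the block, since MT-CO1 took 31.6% in AMO1 SCR D, 25.5% in H929 gN1E A and 20.2% in LP1 SCR D, the lowest value of each line. These percentages are given without a test because they were computed after the values were seen.

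**Figure D5:**
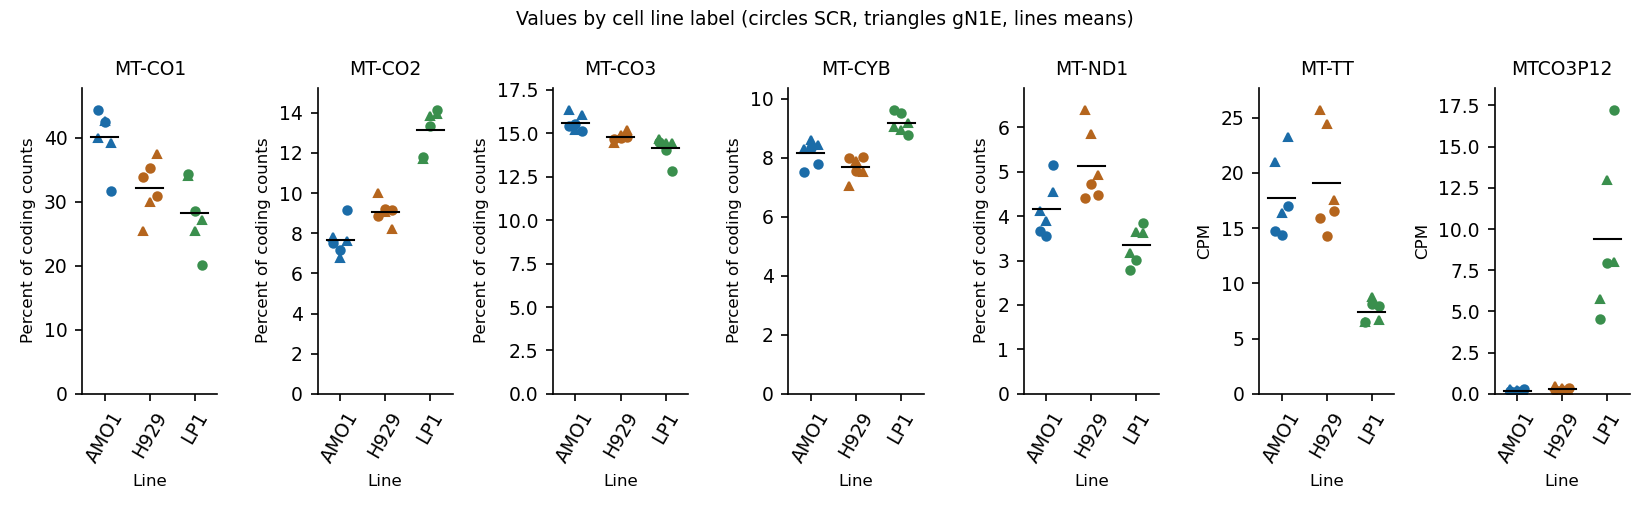
Percent of the chrM coding counts on 5 coding genes, and CPM of MT-TT and of the nuclear copy MTCO3P12, in each library by cell line label (circles SCR, triangles gN1E, lines means of 6). MT-CO2 and MT-CYB lie highest and MT-TT lowest in LP1, and MTCO3P12 reaches 4.56 to 17.2 CPM in LP1 against at most 0.464 CPM in the other lines.

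The nuclear copies on chromosome 1 were read through the same counting. MTND2P28 (chr1:629640-630683) stood between 42.5 and 126 CPM, MTATP6P1 (chr1:633696-634376) between 36.5 and 169 CPM and MTCO1P12 (chr1:631074-632616) between 7.17 and 18.2 CPM. MTATP6P1 was highest in H929 gN1E A (169 CPM) and LP1 SCR D (165 CPM), libraries with the highest chrM shares, and in AMO1 it was at 36.5, 42.3 and 89.6 CPM in SCR, with replicate D highest. No copy passed the test between the gapmer labels in any line.

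MTCO3P12 (chr1:634376-634922), whose sequence is set beside MT-CO3 above, differed by line. It stood at 0.0337 to 0.282 CPM in AMO1, at 0.118 to 0.464 CPM in H929 and at 4.56 to 17.2 CPM in LP1, without overlap between LP1 and the others. The log2 difference was -5.74 ± 0.49 for AMO1 minus LP1 (adjusted p = 1.31e-07, edgeR) and -5.19 ± 0.45 for H929 minus LP1 (adjusted p = 1.64e-07, edgeR). Relative to MT-CO3 in the same library, it held 0.19% to 0.386% in LP1 and at most 0.0105% in the other lines. Within LP1 it was highest in SCR D, as the coding genes were.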

How the data were processed

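Total RNA of 18 libraries was sequenced as stranded libraries, and the labels give 48 h of treatment (the design text gives the same number in days). The authors aligned reads to hg38 with STAR 2.7.10a, counted pairs by strand with featureCounts 1.6.4 on GENCODE release 43, which leaves out pairs that match several places or genes, and deposited raw counts without normalization. Each table listed 62703 genes.

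From these counts, CPM (total counts) and shares were computed with Python, and edgeR 4.0.16 (TMM, robust quasi-likelihood fit, Benjamini-Hochberg adjustment over all genes, threshold 0.05) was run in R 4.3.3 per line, keeping genes that reached 10 reads in any library, and jointly for line and difference tests. Shares were compared by exact permutation tests. Alternatives were limma-voom (limma 3.58.1), DESeq2 1.42.0, other scalings and filters, a replicate block and each library left out. Leaving out the library of highest share in each line was added after seeing the data. The fits were tested on simulated data in which 200 genes changed by 1 on the log2 scale. They recovered 100% of these, and 2.44% to 5.21% of calls were false. The simulation gave all genes the same small spread between replicates, so it does not show how the fits behave for the chrM genes.

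The members and lists were chosen with earlier results of these data known. Named were NEAT1, the coding and rRNA genes, the 3 tRNA genes of highest mean CPM, tRNA genes called between the labels, listed nuclear genes called (up to 2 per direction) and nuclear copies of at least 1 CPM. Other genes were named after their values were seen. Of 18 listed nuclear copies, 7 were found by symbol. Libraries with the same replicate letter deviated together for all 3 letters in AMO1, for letter A alone in LP1 (r = 0.178) and for none in H929. Sequences were read from hg38, and overlaps and the copy came from the files' gene models and a script.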

Additional observations from a re-analysis of the deposited data

Results flagged for a closer look

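MT-TA, the gene of the tRNA for alanine on the minus strand, was higher under the gN1E label in AMO1 and lower in LP1, without overlap between the labels in either line. It was at 0.69, 0.89 and 0.98 CPM in the AMO1 libraries labelled SCR and at 1.55, 1.03 and 1.48 CPM in those labelled gN1E. In LP1 it was at 0.90, 0.85 and 0.97 CPM in SCR and at 0.75, 0.62 and 0.77 CPM in gN1E. The gene passed in neither line (adjusted p = 0.196 in AMO1 and 0.532 in LP1, edgeR). The difference of the effect, AMO1 minus LP1, was 1.12 ± 0.34 on the log2 scale and did not pass the test over all genes (adjusted p = 0.135, edgeR). MT-TA is identical to its nuclear copy over 69 bases.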

How the results depend on the processing

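The direction of the chrM, coding and rRNA share differences between the gapmer labels in each line held with nuclear counts as the denominator and without the 20 most abundant nuclear genes. Both settings left little room for a change of direction, since those 20 genes held 7.81% to 9.06% of counts in every library and chrM held few. Leaving out each library moved the chrM share difference from -0.0664 to 0.411 percentage points in AMO1, from 0.000129 to 1.03 in H929, from -0.861 to 0.0493 in LP1 and from -0.129 to 0.231 over the lines. The coding share difference ran from -0.0657 to 0.4099 in AMO1 and from -0.855 to 0.0548 in LP1, and the rRNA share difference from -0.00313 to 0.00137 in AMO1 and from -0.0052 to 0.000533 in H929. Between H929 and LP1 the share difference was -0.152 in libraries labelled SCR alone. With each library left out it ran from 0.0948 to 0.63, from -0.419 to -0.0415 between AMO1 and LP1 and from -0.816 to -0.403 between AMO1 and H929. The number of chrM genes called between the gapmer labels was, in AMO1, 2 with DESeq2 (background over all genes tested 2.71%), 2 with library size only (2.63%), 0 scaled to the coding genes (0.0305%) and 4 without a filter (2.24%). In H929 it was 1 with limma-voom (4.25%), 2 with DESeq2 (5.48%) and 5 without a filter (4.3%), and in LP1 1 with limma-voom (1.13%), 1 with DESeq2 (2.11%) and 2 without a filter (1.84%). With each library left out it ran from 0 to 2 in AMO1 and from 0 to 8 in H929, and was 0 in LP1 (backgrounds 1.11% to 2.73%, 3% to 5.45% and 0.381% to 3.41%). The cause of these shifts was not tested.

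With the replicate block the count of called genes was 4 in AMO1 (background 6.08%), where libraries of all 3 letters deviated together, and 0 in H929 (3.96%) and LP1 (1.05%). In H929 the letters gave correlations of deviations from -0.094 to -0.0018. In LP1 the correlation was 0.178 for letter A, as high as in AMO1, but 0.0083 for B and -0.059 for D.

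Between AMO1 and H929 the count of called genes was 14 with limma-voom (background 44.9%), 1 in libraries labelled SCR alone (31.7%), 3 in those labelled gN1E alone (36.1%), 16 without AMO1 SCR D, H929 gN1E A and LP1 SCR D (42%), and 1 to 17 with each library left out (41.8% to 45%). Between AMO1 and LP1 it was 5 in libraries labelled gN1E alone (68.8%), and between H929 and LP1 3 in those labelled SCR alone (67.7%) and 5 to 11 with each library left out (73.1% to 75.2%). For differences of the effect between lines it ran from 0 to 1 (AMO1 minus LP1) and from 0 to 2 (H929 minus LP1) with each library left out. The count of 1 came without any 1 of AMO1 SCR D (background 0.463%), H929 gN1E A (0.709%) or H929 gN1E C (0.698%). The count of 2 came without H929 gN1E C (background 0.691%). Of the log2 fold changes of single chrM genes under the alternatives, 54 of 571 changed sign in AMO1, 26 of 588 in H929 and 36 of 573 in LP1. Counting error limits the precision for the tRNA genes, of which 15 of 22 had a mean under 2 CPM.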
